A study of Mus musculus with 2 samples.

Results

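The Ms4a genes encode membrane-spanning 4-domain proteins of subfamily A, and the 7 genes described here were Ms4a3, Ms4a4b, Ms4a4c, Ms4a6b, Ms4a6c, Ms4a6d and Ms4a7. They were chosen by symbol, as the members of this clustered family that serve as markers of progenitors, monocytes and macrophages, and all 7 were found among the 27998 gene rows of both count tables. Another 12 rows had symbols that start with Ms4a. Single-cell RNA sequencing had been performed on F4/80+CD11b+ cells sorted from the alveolar bone around the first molar of male C57/B6 J mice aged 8 weeks. In the OTM (orthodontic tooth movement) group a NiTi coil spring had pulled the molar for 7 days, and the control group had no force. There were 20 mice in both groups together, the number behind each library was not given in the sources used here, and each group was 1 library. No test between the groups was therefore possible, and all intervals below are 95% intervals that cover counting error only.

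Proteins of this family cross the membrane several times and are mostly known from blood cells. Ms4a1 is the B cell antigen CD20, and Ms4a2 is the beta chain of the high-affinity IgE receptor of mast cells and basophils. Ms4a3 marks granulocyte and monocyte progenitors and binds the cyclin-dependent kinase phosphatase Cdkn3. Ms4a4b is known from T cells, where it modulates proliferation, and Ms4a7 is a marker of macrophages. The Ms4a4 and Ms4a6 groups have expanded in the mouse, and several of their products are found on monocytes.

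The family lies in a row on mouse chromosome 19, and in the GENCODE vM21 annotation of GRCm38 (mm10) its 19 genes span 679 kb. The identifiers of all 7 members matched those of the count tables. Ms4a7 (chr19:11321039-11336146, minus strand) opens the stretch of 320 kb that holds the members. Ms4a4c (chr19:11404770-11427246), Ms4a4b (chr19:11443553-11467055), Ms4a6c (chr19:11469366-11482192) and Ms4a6b (chr19:11516512-11531256) follow on the plus strand. Ms4a6d (chr19:11586604-11604849) and Ms4a3 (chr19:11629496-11640851) lie on the minus strand. Ms4a4a, Ms4a4d and Ms4a2 are the other 3 family genes within that stretch.

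The members fall into close and distant relatives. The coding sequences of Ms4a4b and Ms4a4c were 91.8% identical in a global alignment, and those of Ms4a6b and Ms4a6d were 79.9% identical. Ms4a6b and Ms4a6c shared 73.9%, and Ms4a6c and Ms4a6d shared 66.8%. Ms4a3 and Ms4a7 stood apart, with at most 48.3% and 51.1% identity to any other member. Gaps counted as differences in these values. Over aligned bases alone, Ms4a6b was closer to Ms4a6c (85.3%) than to Ms4a6d (81.3%). Identical runs of 50 bases between the transcripts of a member and those of any other Ms4a gene made up 8.13% of the runs of Ms4a4c, 6.08% of Ms4a6c, 5.35% of Ms4a6b, 4.03% of Ms4a4b and 2.69% of Ms4a6d, and none of those of Ms4a3 or Ms4a7. Within the last 500 bases, the end that 3' libraries sample, only Ms4a4c (53 of 451 runs) and Ms4a6c (47 of 451 runs) had such runs. Counts of these 5 genes are therefore uncertain to the extent that reads in those stretches were left out or assigned to the relative.

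The sequences before the start sites are shown for Ms4a4b and Ms4a4c, the pair most alike in coding sequence whose levels differed most, for Ms4a6c, the most abundant member, and for Ms4a3, the progenitor gene. They are the 250 bases before the RefSeq start site (build GRCm38.p6), read 5' to 3' on the gene's strand. Capitals mark the longest identical run that Ms4a4b shares with Ms4a4c, and that Ms4a6c shares with Ms4a6b. No run is marked for Ms4a3.
Ms4a4b: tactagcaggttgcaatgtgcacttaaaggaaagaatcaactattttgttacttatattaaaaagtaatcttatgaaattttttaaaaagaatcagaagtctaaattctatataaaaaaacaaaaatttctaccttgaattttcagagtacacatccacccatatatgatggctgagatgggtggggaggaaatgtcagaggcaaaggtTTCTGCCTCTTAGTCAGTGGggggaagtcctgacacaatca
Ms4a4c: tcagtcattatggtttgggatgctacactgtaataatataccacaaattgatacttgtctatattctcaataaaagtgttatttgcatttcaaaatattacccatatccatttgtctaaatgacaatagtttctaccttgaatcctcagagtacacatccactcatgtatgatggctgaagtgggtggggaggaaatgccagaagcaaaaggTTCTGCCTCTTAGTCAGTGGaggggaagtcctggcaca
Ms4a6c: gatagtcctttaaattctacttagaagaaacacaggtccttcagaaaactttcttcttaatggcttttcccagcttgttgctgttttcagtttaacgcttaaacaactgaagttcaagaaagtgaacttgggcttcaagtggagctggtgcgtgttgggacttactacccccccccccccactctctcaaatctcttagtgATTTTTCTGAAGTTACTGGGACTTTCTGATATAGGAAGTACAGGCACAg
Ms4a3: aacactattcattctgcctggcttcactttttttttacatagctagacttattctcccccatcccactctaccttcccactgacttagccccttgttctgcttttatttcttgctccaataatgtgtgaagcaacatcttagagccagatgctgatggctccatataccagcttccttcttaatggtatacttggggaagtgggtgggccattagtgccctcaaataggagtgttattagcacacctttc
The windows are chr19:11443308-11443557 (Ms4a4b, plus strand), chr19:11407411-11407660 (Ms4a4c, plus), chr19:11469118-11469367 (Ms4a6c, plus) and chr19:11640852-11641101 (Ms4a3, minus). The RefSeq start of Ms4a4c lies 2891 bases from the start of the GENCODE gene, and the start sites of the other 3 lie within 5 bases of it.

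The identical run was 20 bases between Ms4a4b and Ms4a4c and 48 bases between Ms4a6b and Ms4a6c. The other 13 pairs of the 6 members with a RefSeq promoter had runs of 7 to 12 bases. The window of Ms4a6b is not printed because 106 of its bases lie in a GENCODE exon. The PU.1 core GAGGAA (either strand) was found in Ms4a4b and Ms4a4c, 64 and 61 bases before the start, and in 23.3% of all 32851 promoter windows of that length. The interferon-stimulated response motif (GAAA, any 2 bases, GAAA, in 2.98% of all windows) and the ETS-IRF composite motif (GGAA, any 2 bases, GAAA, in 2.30%), on either strand, were in none of the windows of these 6 members. The C/EBP motif TTNNGNAA, present in 36.8% of all windows, was in a window of each of the 6. The RUNX motif TGTGGT (14.0%) was in Ms4a4c alone. These matches describe letters in a window and no binding was measured.

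The tables held 2863 control and 2058 OTM barcodes with 14620877 and 16500733 unique molecular identifiers (UMIs), and 6 barcodes were in both. The filter kept 2444 control cells (10728381 UMIs, median 3676 per cell) and 1255 OTM cells (7787159 UMIs, median 6053). The study describes more cells in each group than these tables hold barcodes, so the kept cells are not the set it analysed. Clusters were named from marker genes, without use of any Ms4a gene, as progenitor-like (Elane, Mpo), neutrophil-like (immature with Ltf and Camp, mature with Retnlg and Mmp8), classical monocyte-like (Ccr2, Ly6c2), MHC-II-like (H2-Aa, Cd74), nonclassical monocyte-like (Ace, Treml4), resident macrophage-like (C1qa, C1qb, C1qc) and B cell-like. The study calls the sorted cells macrophages, yet 37.8% of control and 35.0% of OTM cells were neutrophil-like. Under an alternative filter of 200 genes per barcode these shares were 32.8% and 48.1%. At a lower clustering resolution they were 28.1% and 38.6%, and the other settings stayed near the main values. Classical monocyte-like cells made up 38.8% (36.9 to 40.8%) of the control and 49.2% (46.4 to 52.0%) of the OTM cells. At the lower clustering resolution this order was reversed, as given below. Resident macrophage-like, nonclassical monocyte-like and B cell-like clusters formed in the control library only (50, 156 and 43 cells). Levels are given as CPM: the UMIs of a gene in a set of cells were added up and scaled to a total of 1000000. Since UMIs of a 3' library count molecules they were not divided by length. Control cluster 6, the nonclassical monocyte-like one, also held neutrophil transcripts (S100a8 at 70466 CPM). The B cell-like cluster had Gzma among its leading genes and Mpo at 280 CPM. Control clusters 3 and 7 and OTM clusters 0, 1 and 5 had no listed marker among their 10 leading genes and took the monocyte name from the mean level of the whole list.

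Ms4a3 was the progenitor gene of the family. In control cells it was at 2003 CPM (1845 to 2170) in the 34 progenitor-like cells of cluster 11 and at 204 CPM (167 to 248) in cluster 8, the dividing immature neutrophils with Fcnb and Camp. The B cell-like cluster was at 112 CPM from 26 UMIs in 9.30% of its 43 cells. Everywhere else in the control library the level was between 4.0 and 11.7 CPM. The intervals of the first 3 clusters did not overlap, and those of the remaining clusters did.

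In the OTM library Ms4a3 was at 1204 CPM (1085 to 1332) in the 46 progenitor-like cells of cluster 6, and the next cluster, the dividing monocytes, was at 19.0 CPM. Progenitor-like cells held 74.8% of the 801 control UMIs of Ms4a3 and 83.1% of the 451 OTM UMIs. All 34 control progenitor-like cells and 76.1% of the 46 OTM ones had a UMI of it. Thinned to 1000 UMIs per cell, the shares were 82.4% and 47.8%, against 0.948% and 1.62% of the classical monocyte-like cells. They were 0.348% and 1.96% of the MHC-II-like cells and 1.95% and 0.911% of the neutrophil-like cells.

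The OTM progenitor-like cluster had more immature neutrophil marker transcripts than the control one, as given below. Its cells were also split by Ms4a3 itself, so that this split is no separate measure of makeup. The 11 OTM cells without a Ms4a3 UMI had Elane at 149 CPM and Camp at 54893 CPM. The 35 OTM cells with one had Elane at 13835 CPM and Camp at 28216 CPM. In the control cluster, Elane was at 20762 CPM and Camp at 7626 CPM. The ratio of Ms4a3, OTM over control, within progenitor-like cells was 0.601 (0.527 to 0.685), and the 5 listed progenitor markers summed to 20402 CPM in OTM against 39047 CPM in control, while the listed immature neutrophil markers summed to 85198 CPM against 14517 CPM. With neutrophil-like cells pooled in, the ratio was 0.839 (0.740 to 0.95). Whether these marker differences have a part in the ratio was not tested. Within progenitor-like cells 9.16% of 382 genes with at least 200 UMIs were at least 2-fold lower in OTM and 8.12% were at least 2-fold higher. Ms4a3 was past neither limit. The median log2 ratio of these genes was -0.54 and that of Ms4a3 was -0.73, and 67.3% of the genes had a higher ratio.

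Over all kept cells Ms4a3 was at 74.7 CPM in control and 57.9 CPM in OTM, a ratio of 0.776 (0.690 to 0.872). This direction depended on the filter. The 419 control and 803 OTM barcodes left out by the filter, with median depths of 8395 and 9717 UMIs, held 59.7% of the control and 82.5% of the OTM UMIs of Ms4a3. Within these left-out barcodes alone Ms4a3 was also lower in OTM, at 245 CPM (235 to 255) against 305 CPM (288 to 323) in control. These barcodes held 3892496 of the 14620877 control UMIs and 8713574 of the 16500733 OTM UMIs. Over all barcodes the levels were 136 and 157 CPM, a ratio of 1.15 (1.09 to 1.22). With each kept cell weighted equally the log2 ratio was 0.20. Under a filter of 200 genes per barcode, progenitor-like cells were at 1499 CPM in control and 1821 CPM in OTM.

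**Figure D1:**
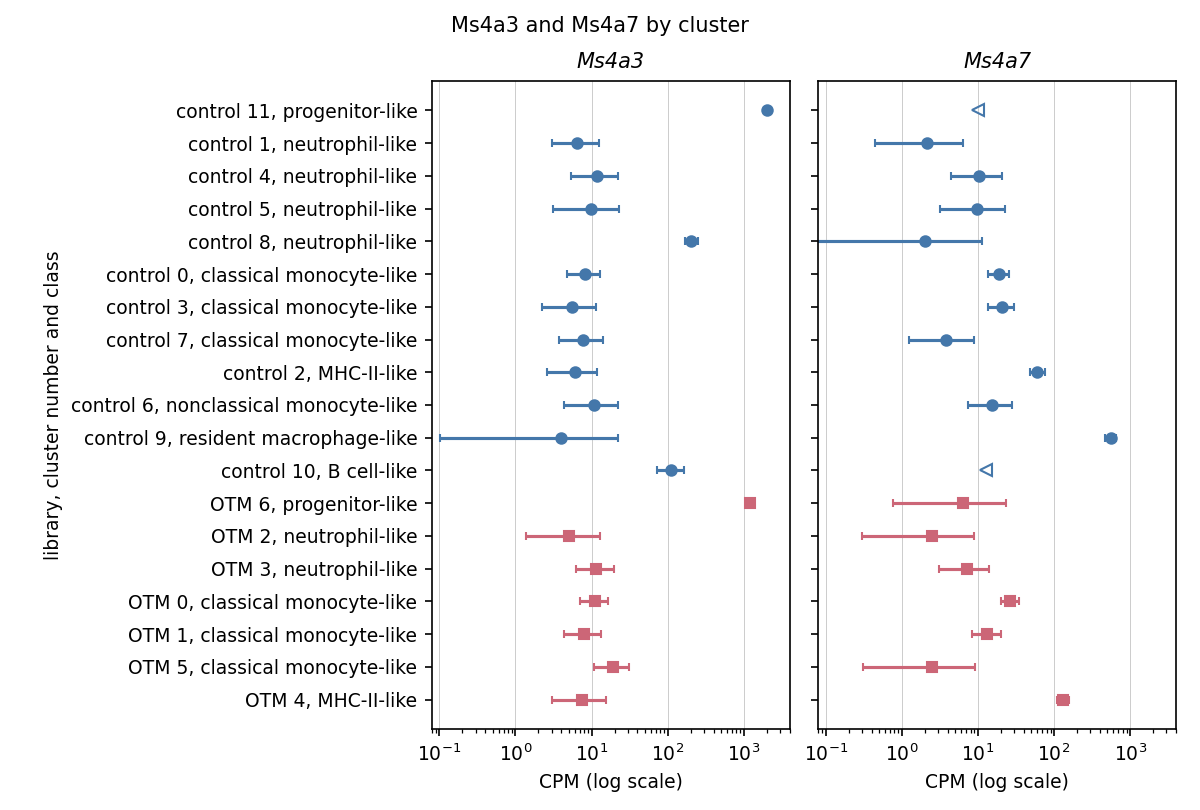
Level of Ms4a3 (left) and Ms4a7 (right) in each cluster of the control library (circles) and the OTM library (squares), in CPM on a log axis, with 95% counting intervals. Open triangles mark clusters with no UMI, drawn at the level of 3 UMIs, and the interval of Ms4a7 in control cluster 8 runs off the left edge. Ms4a3 stands at 2003 and 1204 CPM in the progenitor-like clusters and Ms4a7 at 560 CPM in the resident macrophage-like cluster.

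Ms4a7 had the opposite place, at the macrophage end. In control cells it was at 560 CPM (471 to 661) in the 50 resident macrophage-like cells, at 60.6 CPM (48.1 to 75.3) in MHC-II-like cells, and between 2.00 and 20.6 CPM in the other clusters that had a UMI. No UMI was found in the progenitor-like and B cell-like clusters, where 3 UMIs would be 10.0 and 12.9 CPM. The 50 macrophage-like cells, 2.05% of the library, held 43.6% of the 321 control UMIs. A UMI of Ms4a7 was present in 48.0% of them at 1000 UMIs per cell, against 1.05% of classical monocyte-like cells.

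The OTM library formed no separate resident macrophage-like cluster, and there the MHC-II-like cells had the most Ms4a7, 132 CPM (110 to 158). That cluster also had 3 C1q genes among its 10 leading genes, with C1qa at 249 CPM against 32.9 CPM in the control MHC-II-like cluster and 1840 CPM in the control macrophage-like one. Within MHC-II-like cells the ratio of Ms4a7 was 2.18 (1.63 to 2.92). With the macrophage-like cells pooled in, an alternative added after the data were seen, the levels were 139 CPM in control and 132 CPM in OTM. The ratio was then 0.949 (0.754 to 1.19), with C1qa at 318 and 249 CPM. At resolution 0.3 the log2 ratio of Ms4a7 within MHC-II-like cells had the opposite sign (-1.44). These were other cells: the control library then had no resident macrophage-like class, and the MHC-II-like classes held 303 control and 383 OTM cells. Over all kept cells Ms4a7 was at 29.9 CPM in control and 27.5 CPM in OTM, a ratio of 0.918 (0.769 to 1.10).

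The other 5 members shared a monocyte pattern. Ms4a6c was the most abundant, at 1223 CPM in control and 1432 CPM in OTM classical monocyte-like cells, followed by Ms4a4c at 693 and 809 CPM. Ms4a6b was at 287 and 467 CPM, Ms4a6d at 221 and 643 CPM, and Ms4a4b at 105 and 221 CPM. Progenitor-like cells had at most 54.6 CPM of any of them, from 17 UMIs of Ms4a6c in OTM. Between 61.2% (Ms4a6d) and 71.7% (Ms4a4b) of the control UMIs of these genes lay in classical monocyte-like cells, and between 69.1% (Ms4a6d) and 83.7% (Ms4a4b) of the OTM UMIs.

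Within the control monocytes all 5 were highest in cluster 3, led by interferon-response genes such as Irf7 and Ifi204, in which Ms4a4b was itself a leading gene. There Ms4a6c was at 1504 CPM, Ms4a4c at 978 CPM, Ms4a6b at 447 CPM, Ms4a6d at 365 CPM and Ms4a4b at 206 CPM. Cluster 0, led by Cxcl3 and Saa3, was at 1142, 601, 260, 207 and 59.3 CPM of the same genes, and the dividing cluster 7 at 1089, 573, 179, 104 and 83.1 CPM. The intervals of cluster 3 lay above those of every other control cluster for Ms4a4b, Ms4a4c, Ms4a6b and Ms4a6c, while that of Ms4a6d overlapped that of the MHC-II-like cells (317 CPM).

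The OTM monocyte clusters were ordered differently from gene to gene. Cluster 1, with Ifi202b and Ms4a4c among its leading genes, was at 1587 CPM of Ms4a6c, 1133 CPM of Ms4a4c and 577 CPM of Ms4a6b. Cluster 0, with Saa3 at 18646 CPM, had the highest Ms4a4b, at 266 CPM (244 to 289) against 205 CPM (185 to 228) in cluster 1, but the lowest Ms4a4c of the 3 monocyte clusters, at 564 CPM. Ms4a6d had its top level of 988 CPM (925 to 1054) in MHC-II-like cells, followed by clusters 1 (810 CPM), 0 (621 CPM) and the dividing cluster 5 (334 CPM), with no overlap between neighbours in this order. The closely related Ms4a4b and Ms4a4c thus had opposite orders over OTM clusters 0 and 1, with intervals that did not overlap for either gene.

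**Figure D2:**
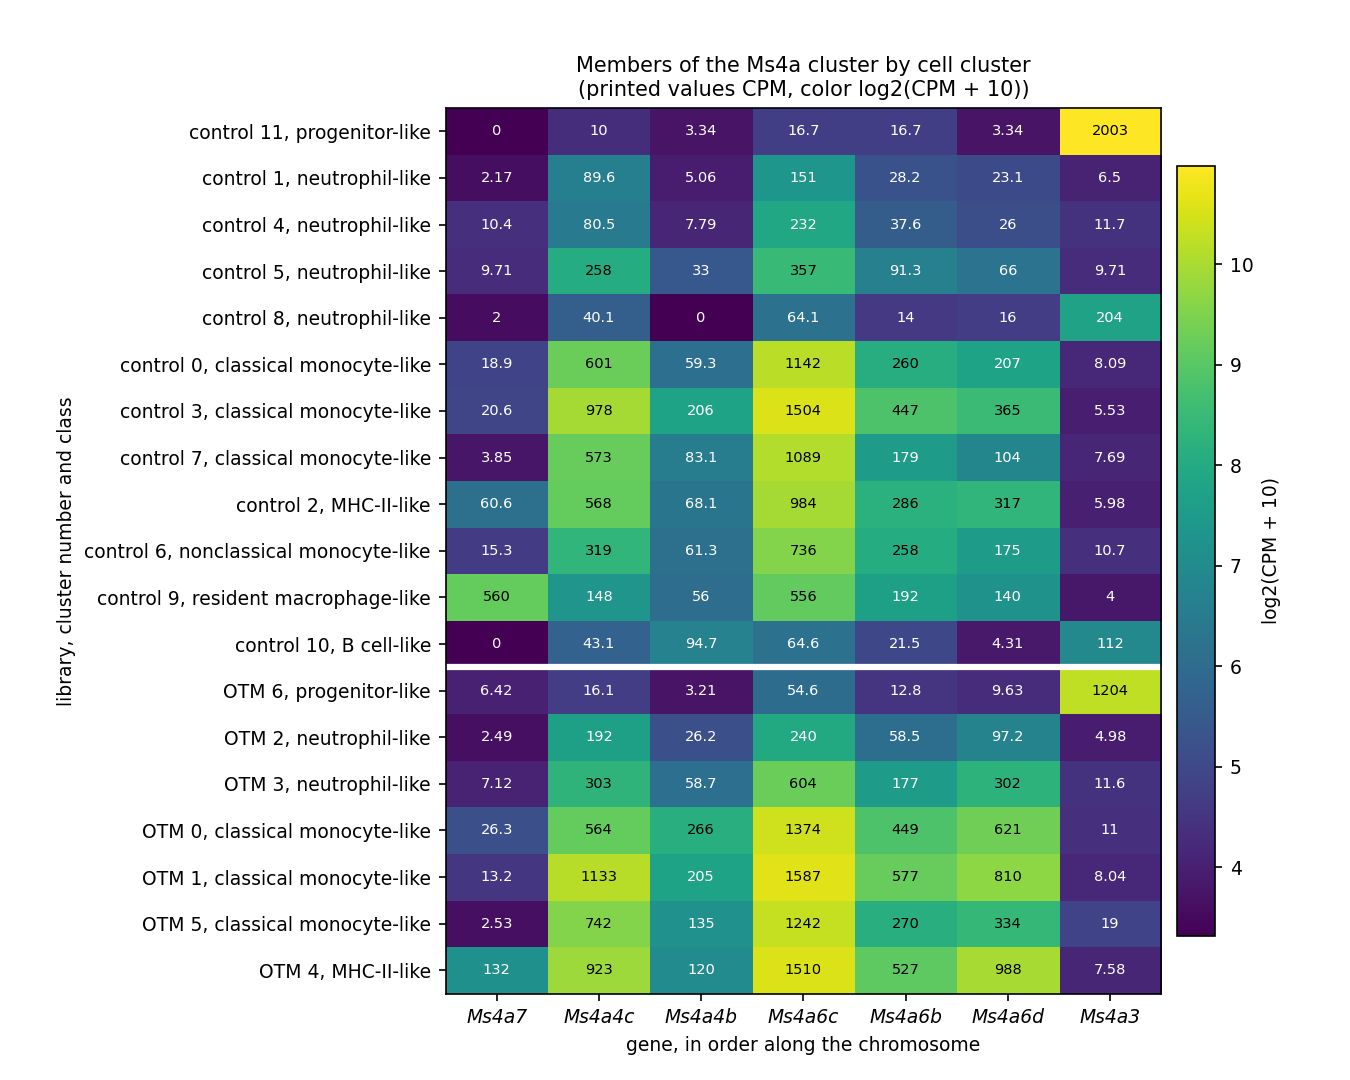
CPM of each member (columns, in order along the chromosome) in each cluster (rows) of the control and OTM libraries, with the color on a scale of log2(CPM + 10). Ms4a3 is brightest in the progenitor-like rows (2003 and 1204 CPM), Ms4a7 in the resident macrophage-like row (560 CPM), and the 5 genes between them in the classical monocyte-like and MHC-II-like rows, with Ms4a6c at 984 to 1587 CPM.

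Which genes had a pattern like each member was asked over the 19 clusters of both libraries, as Pearson's r of log2(CPM + 10) among 5339 genes with at least 200 UMIs. The points share libraries, depth and free RNA, and r describes them only. Ms4a3 was most like Elane (r = 0.964), Nkg7 (0.963), Mpo (0.949), Tmed3 (0.914) and Cst7 (0.911), of which Elane and Mpo encode azurophil granule enzymes. Ms4a7 was most like Pltp (0.938), Adap2os (0.935), C1qc (0.914), C1qb (0.908) and Itgav (0.904). Ms4a4c and Ms4a6c were like each other (0.976), and both had Ccr2 (0.971 and 0.976), the receptor that brings monocytes out of the marrow, and Irf5 (0.966 and 0.980) among their 5. The remaining 2 of the 5 were Mnda and Rassf4 for Ms4a4c, and Pld4 (0.986) and Rassf4 for Ms4a6c.

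Ms4a6b and Ms4a6d were also among each other's 5 (0.966). Ms4a6b was most like Ccl9 (0.979), Asah1, Pid1 and Ifi204, and Ms4a6d most like Gm6377 (0.968), Cd302, Msr1 (the scavenger receptor A) and Socs3. Ms4a4b was most like Camk2d (0.925), Oxa1l, Ly6e, Serinc3 and Tifa, and no other member was among its 5. Its r with Ms4a4c was 0.832 although these 2 are the most alike in sequence. By rank correlation, none of the 5 genes stayed among the closest for Ms4a3, 1 did for Ms4a7, 2 did for Ms4a4b, Ms4a6c and Ms4a6d, and 3 did for Ms4a4c and Ms4a6b.

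Over all kept cells the 5 monocyte-pattern members were higher in the OTM library. Ms4a6d was at 161 CPM in control and 553 CPM in OTM, a ratio of 3.44 (3.25 to 3.64). Ms4a4b followed at 65.2 and 157 CPM, with a ratio of 2.40 (2.19 to 2.64). Ms4a6b was at 196 and 372 CPM, with a ratio of 1.89 (1.79 to 2.00). The ratio was 1.5 (1.44 to 1.56) for Ms4a4c, at 436 and 654 CPM, and 1.46 (1.41 to 1.5) for Ms4a6c, at 785 and 1144 CPM. Hence 2 of 7 members were at least 2-fold higher and none 2-fold lower, where 2.14% of 5339 genes were 2-fold higher and 2.57% were 2-fold lower. With TMM scaling or median-ratio size factors Ms4a6b was also past 2-fold (log2 ratios of 1.05 and 1.06). With no barcode filter the ratio of Ms4a4b was 1.67 (1.53 to 1.83), short of 2-fold, and that of Ms4a6d was 2.73 (2.58 to 2.88). The median log2 ratio was 0.59 over the members and -0.07 over all genes tested. At the main settings classical monocyte-like cells were a larger share of the OTM library, as given above. At resolution 0.3 they were 40.4% of control and 30.8% of OTM cells, the reverse order. The other settings kept the OTM share higher, as with 200 genes per barcode (28.4% and 36.4%). The 7 members together were at 1747 CPM in control and 2965 CPM in OTM.

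Within classical monocyte-like cells (949 control, 617 OTM) the differences were smaller. Ms4a6d was at 221 CPM (208 to 234) in control and 643 CPM (620 to 667) in OTM, a ratio of 2.91 (2.72 to 3.13). Ms4a4b had a ratio of 2.11 (1.89 to 2.35) and Ms4a6b one of 1.63 (1.52 to 1.74). Ms4a4c and Ms4a6c, the most abundant members, both had a ratio of 1.17 (1.11 to 1.22 and 1.13 to 1.21), and 19.0% and 18.8% of the tested genes had a higher one. Of the 5 members with at least 200 UMIs, 2 were at least 2-fold higher and none 2-fold lower, where 2.81% and 2.58% of 3802 genes were. The median log2 ratio of these 5 was 0.70, against -0.11 over all genes tested. Ms4a3 and Ms4a7 had 87 and 153 UMIs in these cells and intervals that included 1.

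The clusters behind these ratios were formed in each library alone and have no fixed partners. Ms4a6d was at 207, 365 and 104 CPM in control clusters 0, 3 and 7 and at 621, 810 and 334 CPM in OTM clusters 0, 1 and 5. The dividing pair (control 7 and OTM 5) can be set side by side most directly, and there Ms4a6d was at 104 and 334 CPM, Ms4a4b at 83.1 and 135 CPM, Ms4a6b at 179 and 270 CPM, Ms4a4c at 573 and 742 CPM and Ms4a6c at 1089 and 1242 CPM. Ms4a4b in OTM cluster 1 (205 CPM) was within the interval of control cluster 3 (182 to 233 CPM), while OTM cluster 0 (244 to 289 CPM) lay above that interval. At resolution 0.3, where the OTM MHC-II-like cluster grew from 153 to 383 cells and the classical monocyte-like class shrank from 617 to 387 cells, the log2 ratio of Ms4a4c was -0.20 and that of Ms4a6d 1.31.

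**Figure D3:**
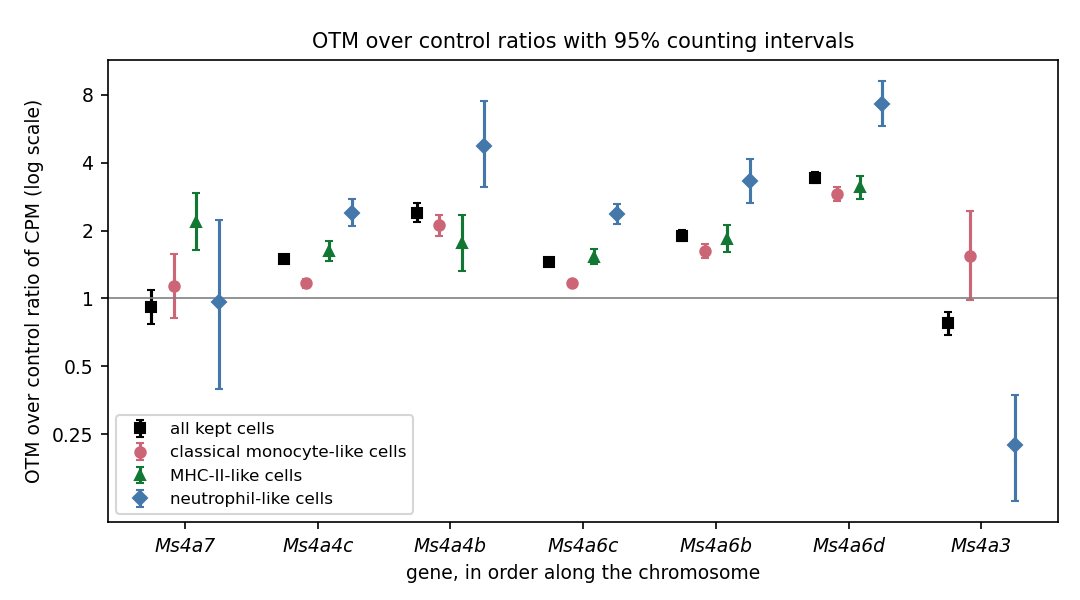
Ratio of CPM, OTM over control, of each member in all kept cells (squares), classical monocyte-like (circles), MHC-II-like (triangles) and neutrophil-like cells (diamonds), on a log axis with 95% counting intervals. Values from fewer than 20 UMIs are left out. The points of Ms4a6d lie between 2.91 and 7.29, and those of Ms4a7 and Ms4a3 fall on both sides of 1.

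In MHC-II-like cells (287 control, 153 OTM) Ms4a6d was at 317 and 988 CPM, a ratio of 3.11 (2.77 to 3.50). The ratios of Ms4a6b, Ms4a4b, Ms4a4c and Ms4a6c were 1.84, 1.77, 1.62 and 1.53, and each interval lay above 1. Ms4a6d and Ms4a7, described above, were past the 2-fold limit. In these cells 3.17% of 1292 genes with at least 200 UMIs were at least 2-fold higher and 1.47% were 2-fold lower. Ms4a7 (81 control and 122 OTM UMIs) and Ms4a4b (91 and 111) reached that minimum only through their OTM UMIs, so no count of members is given here. Under the filter of 200 genes per barcode the log2 ratios of Ms4a4c and Ms4a6c were -0.05 and -0.10, those of Ms4a4b and Ms4a6b were 0.19 and 0.26, and that of Ms4a6d was 0.89.

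Neutrophil-like cells (925 control, 439 OTM) had lower levels. Ms4a6d was at 29.7 CPM in control and 216 CPM in OTM, a ratio of 7.29 (5.82 to 9.22), and Ms4a6b, Ms4a4c and Ms4a6c had ratios of 3.32, 2.40 and 2.37. In these cells 7.66% of 1957 genes with at least 200 UMIs were at least 2-fold higher and 3.68% were 2-fold lower. Ms4a6d and Ms4a6b reached that minimum only through their OTM UMIs, and Ms4a3, lower in OTM, did not reach it, so no count of members is given here. Ms4a3 was at 39.5 and 8.82 CPM in these cells, from 125 and 17 UMIs, and 102 of the control UMIs lay in cluster 8, whose leading genes Fcnb and Camp also led the OTM progenitor-like cluster. The UMIs of the 5 monocyte-pattern genes lay in few barcodes. In OTM, 67 of the 439 cells (15.3%) had 10 or more UMIs of them and held 86.1% of them, and 58.5% of the cells had none. In control, 46 of 925 cells (4.97%) held 69.4%. OTM cluster 3, in which monocyte genes such as Ccr2 (235 CPM) accompanied S100a8, was at 302 CPM of Ms4a6d and 604 CPM of Ms4a6c. Between the clusters led by stefin genes alone (control 4 and OTM 2), Ms4a6c was at 232 and 240 CPM, a ratio of 1.03 (0.840 to 1.28), Ms4a6b at 37.6 and 58.5 CPM, a ratio of 1.56 (0.959 to 2.56), and Ms4a6d at 26.0 and 97.2 CPM, a ratio of 3.74 (2.27 to 6.46).

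The kept OTM cells had a higher median of UMIs per cell, so shares of cells with a UMI were compared at 1000 UMIs per cell. Among classical monocyte-like cells, Ms4a6d was found in 17.7% (15.3 to 20.3%) of control and 44.7% (40.8 to 48.8%) of OTM cells. Before thinning these shares were 50.3% and 91.1%. Ms4a6b was found in 23.9% and 38.1%, Ms4a4b in 8.75% and 17.3%, Ms4a4c in 42.3% and 47.5%, and Ms4a6c in 70.7% and 72.3%. The intervals of the 2 libraries were apart for Ms4a6d, Ms4a6b and Ms4a4b and overlapped for Ms4a4c and Ms4a6c. In neutrophil-like cells the thinned share of Ms4a6d was 2.05% in control and 8.43% in OTM.

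**Figure D4:**
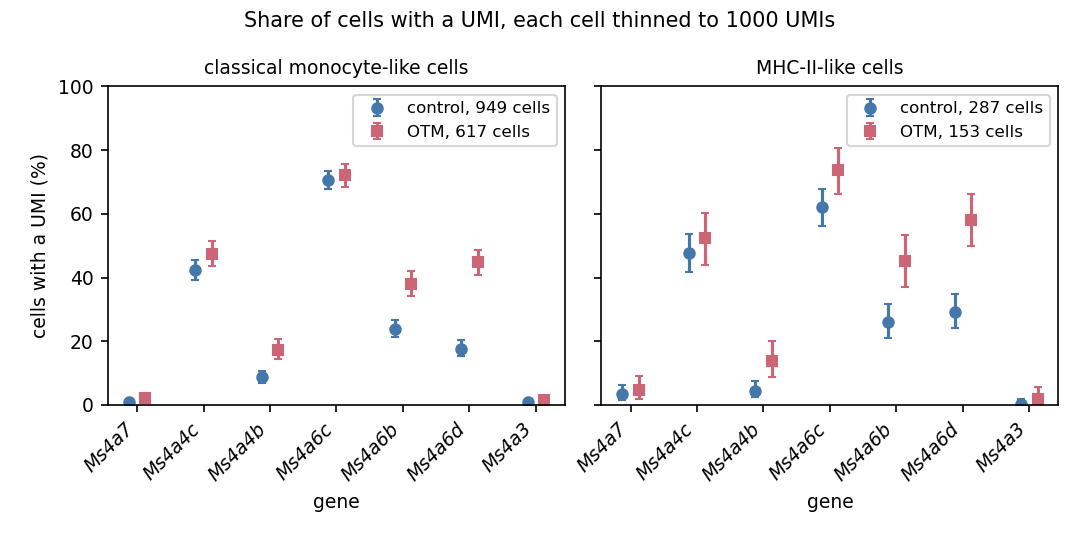
Percent of cells with at least 1 UMI of each member after each cell was thinned to 1000 UMIs, with exact binomial 95% intervals, in classical monocyte-like (left) and MHC-II-like cells (right) of the control (circles) and OTM (squares) libraries. The share of Ms4a6d is 17.7% and 44.7% on the left, and that of Ms4a6c is 70.7% and 72.3%.

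Single monocytes carried several members at once. At 1000 UMIs, classical monocyte-like cells with 3 or more of the 5 monocyte-pattern members were the sum of 14.2%, 4.32% and 0.316% of the control cells with 3, 4 and 5 members, and of 30.1%, 9.89% and 1.13% of the OTM cells. Without thinning, all 5 were found in 11.8% of control and 47.2% of OTM cells, whose median depths were 4296 and 7407 UMIs. The median cell held 10 UMIs of the 5 genes in control and 25 in OTM, and 0.843% and 0.324% of the cells held none.

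How often members were found in the same cell was set beside the product of their single shares. In OTM monocytes Ms4a6c and Ms4a6d were both found in 35.5% of cells, where the product of their shares was 32.3%, and Ms4a4c and Ms4a6d in 24.3% against 21.2%. For Ms4a4b and Ms4a4c the values were 7.78% against 8.24% in OTM and 4.74% against 3.70% in control. For Ms4a6b and Ms4a6d they were 5.80% against 4.23% in control. In neutrophil-like cells the excess was larger, with Ms4a6c and Ms4a6d together in 1.19% against 0.160% in control and in 4.33% against 1.27% in OTM. Cells of different clusters were mixed here, and no test was made.

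**Figure D5:**
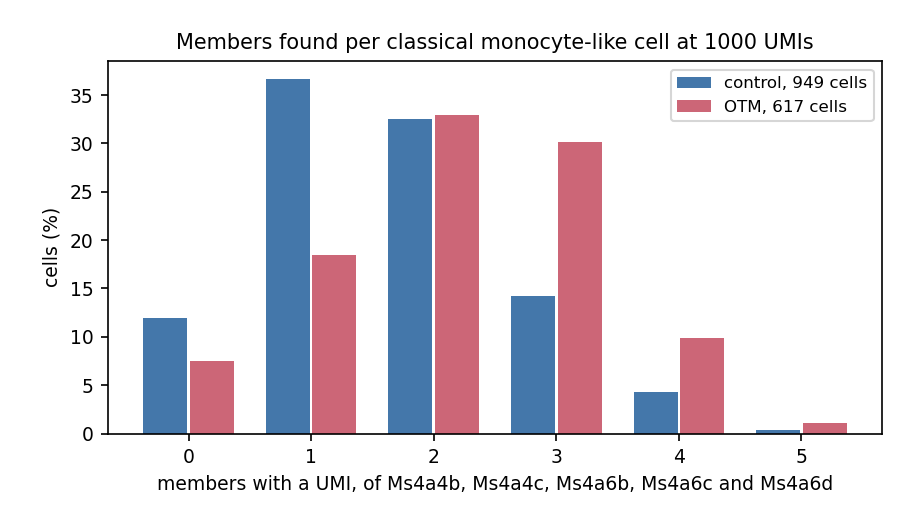
Percent of classical monocyte-like cells with a UMI of 0 to 5 of the genes Ms4a4b, Ms4a4c, Ms4a6b, Ms4a6c and Ms4a6d after each cell was thinned to 1000 UMIs, control (949 cells, blue) and OTM (617 cells, red). Most control cells have 1 (36.7%) or 2 members (32.6%), and most OTM cells 2 (32.9%) or 3 (30.1%).

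The members' shares of the family's UMIs also differed. Among all UMIs of the 7 members in classical monocyte-like cells, Ms4a6c made up 47.9% in control and 39.8% in OTM, and Ms4a4c 27.2% and 22.5%. Ms4a6d made up 8.65% and 17.9%, Ms4a6b 11.3% and 13%, and Ms4a4b 4.10% and 6.13%. These shares do not depend on the library totals.

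Among the other 12 Ms4a rows, Ms4a8a, known from alternatively activated macrophages, had by far the most UMIs. It was at 35.0 CPM in control and 267 CPM in OTM over all kept cells, a ratio of 7.63 (6.83 to 8.54), and at 58.0 and 372 CPM in classical monocyte-like cells, a ratio of 6.40 (5.64 to 7.29). OTM cluster 0, the one with the most Saa3, was highest at 521 CPM. Ms4a4a was at 1.40 and 5.27 CPM, a ratio of 3.77 (2.04 to 7.32) from 15 and 41 UMIs. Ms4a1 was at 1.96 and 1.03 CPM over all kept cells and at 68.9 CPM, from 16 UMIs, in the B cell-like cluster. Ms4a2 and Ms4a14 had 2 UMIs in control and 0 in OTM, and Ms4a4d, Ms4a5, Ms4a10, Ms4a12, Ms4a13, Ms4a15 and Ms4a18 had 0 in both libraries.

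Tmem176a and Tmem176b, distant relatives of the same protein fold known from antigen-presenting myeloid cells, were lower in OTM MHC-II-like cells. There Tmem176b was at 577 CPM in control and 381 CPM in OTM, a ratio of 0.660 (0.580 to 0.750), and Tmem176a at 337 and 170 CPM, a ratio of 0.505 (0.418 to 0.607). The 2 MHC-II-like classes also differed in markers. Their listed MHC-II markers summed to 41456 CPM in control and 28422 CPM in OTM, and the resident macrophage markers to 157 and 765 CPM. Whether this has a part in the ratios was not tested. In classical monocyte-like cells their ratios were 1.91 (1.69 to 2.15) and 1.76 (1.48 to 2.09).

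Of the 9 listed genes whose products work with family members, 8 were matched by symbol and Clec7a was not analysed here. None with at least 200 UMIs was past the 2-fold limit over all kept cells or in classical monocyte-like cells. In progenitor-like cells the adaptor Fcer1g was past it, at 344 CPM in control and 1230 CPM in OTM, a ratio of 3.57 (2.87 to 4.48). It had 103 control and 383 OTM UMIs there, in 2 clusters that differed in markers as given above. Of the 382 genes tested in these cells, 8.12% were at least 2-fold higher. Cdkn3, the phosphatase bound by Ms4a3, was at 23.4 CPM in control and 73.8 CPM in OTM progenitor-like cells, from 7 and 23 UMIs. Cdk2, the kinase that Cdkn3 acts on, was at 13.1 and 8.86 CPM over all kept cells. The stem cell factor receptor Kit was at 2.52 and 0.385 CPM, from 27 and 3 UMIs. Tnfrsf18 (GITR) was at 4.19 and 2.31 CPM, from 45 and 18 UMIs. Kit and Tnfrsf18 were below the minimum of 200 UMIs. The adaptors Tyrobp and Fcer1g were at 3796 and 3011 CPM in control and at 2942 and 2995 CPM in OTM classical monocyte-like cells. Trem2, whose shed form has been linked to the MS4A locus in people, was at 292 CPM in control macrophage-like cells, and in MHC-II-like cells at 12 CPM in control and 50.9 CPM in OTM, next to the C1q difference given above. Syk was at 97.1 and 63.1 CPM in classical monocyte-like cells, a ratio of 0.650 (0.560 to 0.754).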

How the data were processed

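Cells had been sorted as F4/80+CD11b+, and libraries were made with the 10x 3' v2 kit. The authors aligned reads with Cell Ranger 3.0.0 to mm10 and deposited counts of UMIs per gene and barcode, not normalized. A literal reading of the study's filter was used: a barcode needed 200 genes for each 1000 of its UMIs, and mitochondrial transcripts could not exceed 5%. Each library was clustered alone in Seurat 5.3.0 (12 and 8 components, 20 neighbours, resolution 0.6, seed 42) with all Ms4a genes left out of the variable features. A cluster took the name with most markers among its 10 leading genes or, without such a marker or on a tie, the highest mean z-score, with at least 3 markers at 50 CPM. Levels are summed UMIs scaled to 1000000 (CPM) with exact Poisson intervals, shares have exact binomial intervals and ratios exact conditional binomial intervals, with 0.5 UMIs added for log2 ratios. Genes were compared where they had 200 UMIs over both libraries. Scripts ran in Python 3.11.15, numpy 2.4.6, scipy 1.17.1 and scanpy 1.11.5 (Scrublet called 99 control and 11 OTM doublets, kept in the main values), and were tested on simulated data. The members, marker lists and the gene lists were chosen with earlier results of these data known. All 7 members, the other Ms4a rows, Tmem176a, Tmem176b, 9 partner genes and the 5 genes most like each member are named by rule, and leading genes and Saa3, S100a8, Gzma and Ifi202b were named after their values were seen. Alternatives were other filters, scalings, resolutions and doublet removal.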

Additional observations from a re-analysis of the deposited data

Results flagged for a closer look

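Barcodes left out by the filter were outside the main comparisons, and 5 members were higher there in OTM (803 barcodes) than in control (419 barcodes), with intervals apart. Ms4a6c was at 286 CPM against 113 CPM, Ms4a4c at 165 against 45 CPM, Ms4a6d at 147 against 23.1 CPM, Ms4a6b at 85.8 against 24.9 CPM and Ms4a4b at 23.5 against 14.4 CPM.

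Some ratios, OTM over control, lay on opposite sides of 1 in 2 classes, with counting intervals apart from 1 in both. The difference was not tested, since each group was 1 library. Tmem176a was at a ratio of 1.76 in classical monocyte-like and 3.18 in neutrophil-like cells against 0.505 in MHC-II-like cells, and Tmem176b at 1.91 and 3.62 against 0.660. Cdkn3 was at 3.16 in progenitor-like cells against 0.744 in classical monocyte-like and 0.262 in neutrophil-like cells. Tyrobp was at 1.54 in progenitor-like and 1.03 in neutrophil-like cells against 0.775 in classical monocyte-like and 0.858 in MHC-II-like cells. No member itself had such a pair.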

How the results depend on the processing

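Among log2 ratios, OTM over control, recomputed over all kept cells and in classical monocyte-like cells, 63 moved by less than their counting interval, 31 moved by more and 4 moved by more and changed sign, and the cause was not tested. Ms4a7 over all kept cells, with an interval that includes no difference, was at 0.010 and 0.018 with TMM scaling and median-ratio size factors, against -0.12. Over all kept cells, Ms4a3 was at 0.19 with at least 200 genes per barcode, 0.20 with no filter and 0.20 as a mean over cells, against -0.37. With TMM scaling, whose log2 factor between the libraries was -0.13, Ms4a4c, Ms4a6b, Ms4a6c and Ms4a6d were at 0.72, 1.05, 0.68 and 1.91, and with median-ratio size factors at 0.72, 1.06, 0.68 and 1.92, with Ms4a4b at 1.40. With 200 genes per barcode Ms4a4b, Ms4a4c, Ms4a6b, Ms4a6c and Ms4a6d were at 0.73, 0.24, 0.54, 0.18 and 1.44, and with no filter at 0.74, 0.25, 0.55, 0.19 and 1.45, so that Ms4a4b was below 2-fold under both. In classical monocyte-like cells the same 5 genes were at 1.28, 0.43, 0.91, 0.43 and 1.75 with TMM scaling. At resolution 0.3 Ms4a4c, Ms4a6b, Ms4a6c and Ms4a6d were at -0.20, 0.53, 0.14 and 1.31, and with 200 genes per barcode Ms4a4b, Ms4a4c, Ms4a6b and Ms4a6d were at 1.46, 0.39, 0.87 and 1.91. In MHC-II-like cells Ms4a4c and Ms4a6c were at -0.054 and -0.10 with 200 genes per barcode, and Ms4a7 was at -1.44 at resolution 0.3 and at -0.073 with the resident macrophage-like cells pooled in. Ms4a3 in progenitor-like cells was at 0.28 with 200 genes per barcode. Genes 2-fold higher and lower numbered 114 and 137, 159 and 88 with TMM scaling, 165 and 87 with median-ratio size factors, 384 and 1029 with a minimum of 10 UMIs, and 1167 and 2835 with no minimum. Alternatives that pooled classes, used the stefin-led clusters or left out shared barcodes were chosen after seeing the data. Ms4a6d stayed higher in OTM in the 4 sets of cells under all settings run. Counts under 20 UMIs, as for most members in progenitor-like cells, allow no direction. No paired analysis was possible because each group was 1 library.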
